A study of Mus musculus with 13 samples.

Results

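Germ-lineage-restricted BLIMP1 regions are places in the mouse genome where a BLIMP1 ChIP-seq summit was called in all 6 germ-lineage libraries and in none of the 6 somatic ones. They were found by merging the summits of the 12 ChIP libraries on chromosomes 1 to 19 wherever neighbours lay at most 200 bp apart, and 1596 of 152528 merged regions (1.05%) met the rule. The members were thus chosen by the presence and absence of called summits in these same libraries, so their germ-lineage pattern is a description and was not tested. "Restricted" means only that no somatic summit fell in the merged region.

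Every library came from C57BL/6 cells homozygous for an EGFP knock-in at the N terminus of BLIMP1, so the tagged protein was carried by all groups, and the tag was pulled down with an antibody against GFP. The germ-lineage libraries were 2 from day 2 primordial germ cell-like cells (d2 PGCLC, sorted as KIT+), 2 from day 6 PGCLC (d6 PGCLC, sorted as SSEA1+ and integrin beta 3+), and 1 each from male and female E12.5 primordial germ cells (PGC, sorted as SSEA1+ from gonads of embryos made by intracytoplasmic sperm injection). PGCLC were induced from epiblast-like cells grown for 36 h, the d2 cells with LIF and BMP4 at 500 ng/mL, and the d6 cells with LIF, BMP4, BMP8a at 500 ng/mL, SCF at 100 ng/mL and EGF at 50 ng/mL. The somatic libraries were 2 each from E16.5 embryonic intestinal epithelium (emIE, GFP+ and EPCAM+), postnatal day 4 photoreceptor precursors (PRP, GFP+ retinal cells) and plasmablasts (PB, GFP+ and CD138+ cells after 3 days with IL-4 at 2 ng/mL and LPS at 10 ng/mL). The deposited lists hold summit positions alone, with no height, score, depth or expression, so the labelled cell types could not be checked against markers, and a longer list may be deeper or called at another threshold.

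BLIMP1 is the product of Prdm1, a transcription factor of the PRDM family that binds DNA through zinc fingers and mostly acts as a repressor by recruiting chromatin-modifying partners. In the mouse embryo it is needed to set aside primordial germ cells, where the somatic programme is repressed, pluripotency genes are expressed again and the genome loses much of its DNA methylation. In B cells it drives plasma cell differentiation, in the retina it favours photoreceptors over bipolar cells, and in the fetal gut it holds the epithelium in its immature state.

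Few of the regions lie where a sequence was at hand. The middle of a region fell inside a RefSeq promoter window, defined as 250 bases before to 50 bases after an annotated start, for 16 of 31365 windows on GRCm38.p6, the assembly behind mm10. These 16 windows hold 15 members, because C330002G04Rik has 2 windows 1 bp apart. Among these 16, the letters GTGAAAG, the core of the BLIMP1 recognition sequence, were found on either strand in 5 windows. The 4 windows where these letters lie upstream of the start are shown from base -250 to base -1, 5' to 3' on the gene's strand, because in them the summits of 6 libraries and a candidate BLIMP1 sequence can be read together. Capitals mark GTGAAAG or its reverse complement CTTTCAC.
Cyp2j9: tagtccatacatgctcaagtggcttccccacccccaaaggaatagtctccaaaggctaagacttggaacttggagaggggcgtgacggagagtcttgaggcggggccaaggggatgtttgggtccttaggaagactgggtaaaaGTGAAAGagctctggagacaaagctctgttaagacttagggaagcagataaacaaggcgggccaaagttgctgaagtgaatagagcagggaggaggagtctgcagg
Gm33070: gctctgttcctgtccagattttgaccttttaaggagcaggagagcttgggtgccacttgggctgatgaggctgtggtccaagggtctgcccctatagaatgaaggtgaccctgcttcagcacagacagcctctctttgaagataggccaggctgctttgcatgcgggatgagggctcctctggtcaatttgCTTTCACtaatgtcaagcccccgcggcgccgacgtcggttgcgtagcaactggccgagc
Clec12b: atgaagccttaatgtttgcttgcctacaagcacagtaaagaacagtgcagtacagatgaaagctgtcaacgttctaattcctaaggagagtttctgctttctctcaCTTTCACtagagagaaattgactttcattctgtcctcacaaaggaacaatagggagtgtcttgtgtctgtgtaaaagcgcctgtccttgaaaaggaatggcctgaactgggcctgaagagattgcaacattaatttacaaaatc
Inhbc: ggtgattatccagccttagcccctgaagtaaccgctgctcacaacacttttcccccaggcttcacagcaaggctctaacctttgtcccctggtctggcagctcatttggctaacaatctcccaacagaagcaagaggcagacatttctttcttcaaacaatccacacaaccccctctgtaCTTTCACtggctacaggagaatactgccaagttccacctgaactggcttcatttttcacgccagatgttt
The Cyp2j9 stretch is chr4:96591486-96591735 on the minus strand, Gm33070 is chr4:110152419-110152668 on the plus strand, Clec12b is chr6:129385504-129385753 on the minus strand and Inhbc is chr10:127370549-127370798 on the minus strand. Cyp2j9 encodes a cytochrome P450, Clec12b a C-type lectin receptor, Inhbc an inhibin beta subunit, and Gm33070 is a predicted gene. At Cyp2j9 the 6 summits lay between -128 and -64 bp from the start (median -114) and the GTGAAAG letters began at -106. At Inhbc the summits spread from -185 to 14 bp (median -100) around letters that began at -70. At Gm33070 the summits lay between -122 and -72 bp (median -98.0) and the letters began at -59, while at Clec12b they lay between -113 and -61 bp (median -91.0) and the letters began at -144. The letters thus fell among the summits in Cyp2j9 and Inhbc and beside them in Gm33070 and Clec12b. In the 5th window, that of the oligodendrocyte myelin gene Mobp, the letters began at 31 bp, downstream of all 6 summits (-229 to -123 bp).

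The window of Timp4, which encodes an inhibitor of matrix metalloproteinases, is shown as a contrast because its summits were the most tightly placed of the 16 windows and it holds no GTGAAAG. It is chr6:115252206-115252455 on the minus strand, and capitals here mark the shorter letters GAAAG or CTTTC.
Timp4: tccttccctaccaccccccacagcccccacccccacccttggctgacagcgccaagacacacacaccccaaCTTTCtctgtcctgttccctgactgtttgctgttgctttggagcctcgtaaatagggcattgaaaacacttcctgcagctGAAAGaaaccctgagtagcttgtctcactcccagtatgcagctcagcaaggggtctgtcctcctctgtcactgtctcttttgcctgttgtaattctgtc
The 6 summits at Timp4 lay within 23 bp of each other, from -90 to -67 bp. These 5 windows were picked after their values were seen. GTGAAAG was present in 31.2% of the 16 windows, against 4.19% of all windows, 23.0% of the 300 windows holding a region with all 6 germ-lineage libraries and a somatic one, and 29.3% of the 191 windows holding a region of all 12 libraries. GAAAG, which is contained in GTGAAAG, was in 81.2%, 57.3%, 91.0% and 95.3% of the same sets. The interferon-response letters, a pair of GAAA runs with 2 free bases between them, were in 0 of the 16 windows, 3.45% of all windows, 57 of the 300 and 41 of the 191. The GC box GGGCGG was in 18.8%, 36.0%, 65.0% and 67.5%. In windows holding a region found only in both libraries of emIE, PRP or PB, GTGAAAG was in 21.4% of 28, 5.48% of 73 and 4.13% of 1210. The remaining searches found GCCNNNGGC, the TFAP2 sequence, in 2 of 16 windows, ATGCAAA, the octamer, in 2, and AAGGTCA, an ESRRB-type sequence, in 1. Over all windows the shares were 16.7% for GCCNNNGGC, 4.68% for ATGCAAA and 4.70% for AAGGTCA, so no excess of these letters is shown. All letters were searched on both strands, a match is not a shown binding site, and 16 windows are too few to rank these shares.

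Of 4609 regions with all 6 germ-lineage libraries, the 1596 without a somatic summit were 34.6%, 1075 carried all 6 somatic libraries as well, and 328, 607, 274, 404 and 325 carried 1, 2, 3, 4 and 5 somatic libraries. Most near misses on the germ-lineage side lacked a summit in male E12.5 PGC alone. A further 848 regions lacked a somatic summit and missed only that library, whereas 207 missed only d6 PGCLC replicate 2, 182 only d2 PGCLC replicate 1, 101 only female E12.5 PGC, 60 only d2 PGCLC replicate 2 and 32 only d6 PGCLC replicate 1. The male list was the shortest of the 6, with 12115 autosomal summits, and the list of d6 PGCLC replicate 1 was the longest, with 75237. On the somatic side, 102 and 60 regions were kept out by PB replicate 1 or 2 alone, 29 and 71 by emIE replicate 1 or 2 alone, and 23 and 43 by PRP replicate 1 or 2 alone. The members held 13.2% of the summits of male E12.5 PGC, 10.5% and 10.0% of those of d6 PGCLC replicate 2 and d2 PGCLC replicate 1, 9.22% of female E12.5 PGC, 6.13% of d2 PGCLC replicate 2 and 2.12% of d6 PGCLC replicate 1. No source used here says that the 2 libraries of a cell type came from separate cultures or animals.

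The merge rule, which chains summits at most 200 bp apart, limits how far the summits of a member can spread, so the following values describe the regions and show no agreement beyond that rule. The 6 summits spanned a median of 114 bp (quartiles 75 and 177 bp, lowest 8, highest 773), and in 660 members (41.4%) they fell within 100 bp. Exactly 6 summits made up 1558 members (97.6%), that is 1 from each library. Each library's summit was also compared with the median of the other libraries' summits in the same region. The median distance from it ran from 28.0 bp in d6 PGCLC replicate 1 to 35.0 bp in male E12.5 PGC. Of each library's summits, 64.8% to 73.4% lay within 50 bp of that median, and the median shift ran from -1.50 to 1.00 bp. All of these summits lie in the same merged region, so the merge rule limits these distances too.

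**Figure D1:**
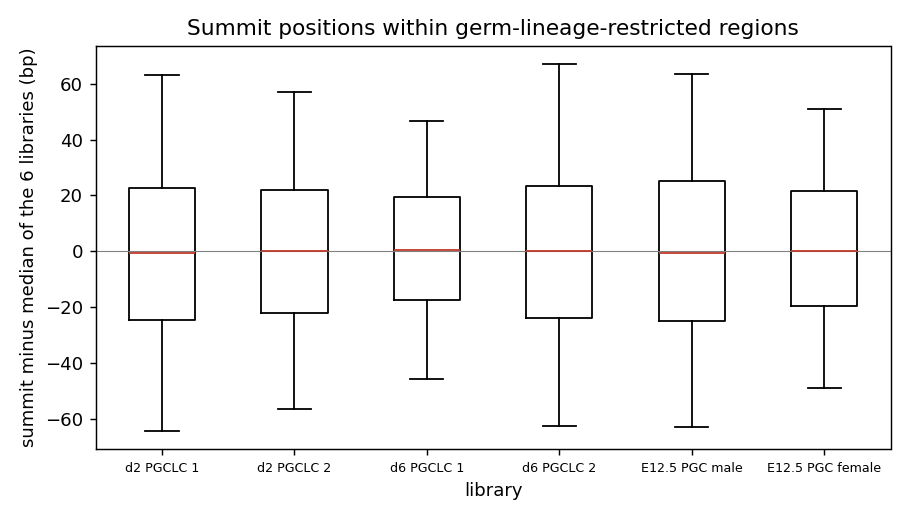
Position of each germ-lineage library's summit relative to the median of the 6 libraries in the same region (bp), over 1596 germ-lineage-restricted regions. The distributions are centred near 0 by construction. Measured instead from the median of the other libraries, the median absolute distances ran from 28.0 to 35.0 bp.

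Most germ-lineage-restricted regions lay away from gene ends. Only 69 of 1596 (4.32%, exact Clopper-Pearson 95% interval 3.38 to 5.44, which like all intervals here covers counting error only) had a protein-coding gene end, 5' or 3', within 1 kb, against 16.4% of all merged regions. The share was 22.7% (21.2 to 24.3) for the 3013 regions that also carried a somatic summit and 33.9% (31.0 to 36.8) for the 1075 of these that had all 12 libraries. Regions restricted to a somatic cell type had a summit in both of its libraries and in no other library. They thus needed fewer libraries than the members did. Those restricted to PRP were closest to the germ-lineage value, with 6.04% (5.26 to 6.89), followed by those restricted to emIE with 9.36% (7.55 to 11.4) and to PB with 23.9% (23.1 to 24.7). The germ-lineage-restricted regions were split between gene bodies and intergenic space. A total of 765 (47.9%, 45.5 to 50.4) lay inside a protein-coding gene, and 336 (21.1%, 19.1 to 23.1) lay in intergenic DNA over 50 kb from any such gene. Their median distance to the nearest gene end was 28.0 kb (quartiles 8.67 and 85.7), compared with 10.8 kb for regions that also had a somatic summit and 5.87 kb for regions of all 12 libraries. Regions restricted to PRP lay as far out, with a median of 32.5 kb (quartiles 8.79 and 102) and 21.9% (20.5 to 23.3) in intergenic DNA over 50 kb from a gene, so a distal position was not found in the germ-lineage-restricted regions alone.

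**Figure D2:**
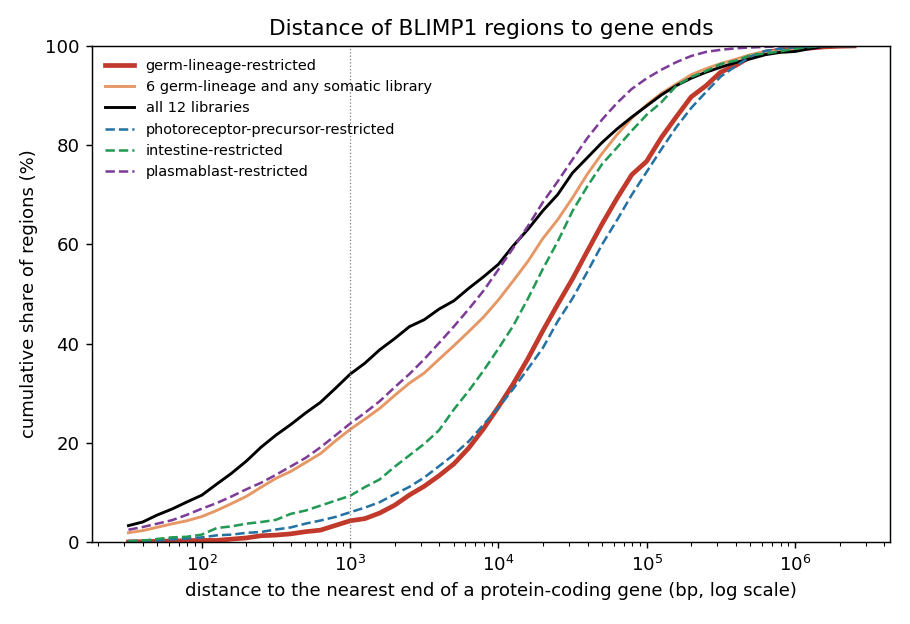
Cumulative share of regions (%) against distance to the nearest end of a protein-coding gene (bp, log scale), 1 curve per region class. At 1 kb the germ-lineage-restricted curve stands at 4.32% and that of the regions of all 12 libraries at 33.9%.

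The gene-end share was lower with more germ-lineage libraries and higher with more somatic libraries, as counts without a test. Among regions with no somatic summit it was 8.78%, 7.85%, 5.67%, 4.85%, 4.48% and 4.32% as the number of germ-lineage libraries went from 1 to 6. Among regions with all 6 germ-lineage libraries it was 4.32%, 10.4%, 10.2%, 19.7%, 18.8%, 29.2% and 33.9% as the number of somatic libraries went from 0 to 6. The members are thus the low end of both series. Their interval overlaps those of regions with 3, 4 or 5 germ-lineage libraries (4.93 to 6.49, 3.97 to 5.87 and 3.46 to 5.68) and lies below that of regions with 1 somatic library (7.29 to 14.2). The regions are not independent samples, and how the length of each list bears on these shares was not tested.

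**Figure D3:**
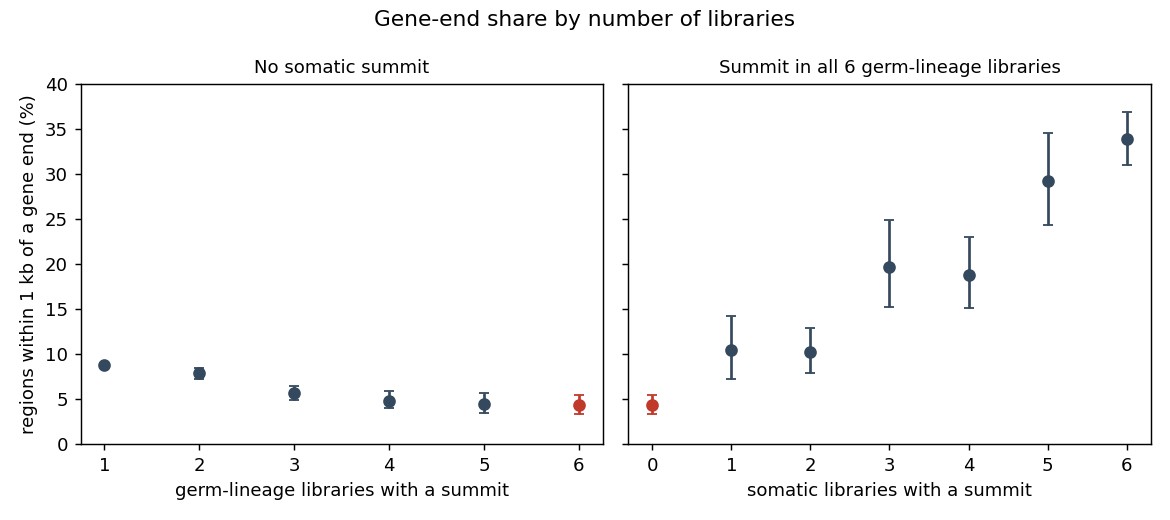
Share of regions within 1 kb of a gene end (%, bars are exact 95% intervals) by the number of germ-lineage libraries with a summit when no somatic library has one, and by the number of somatic libraries when all 6 germ-lineage libraries have one. The germ-lineage-restricted regions are the last point of the first series and the first point of the second, at 4.32%.

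Where RefSeq gave the strand of genes, the separation lay at the 5' end. A member was within 1 kb of the 5' end of a gene in 27 of 1544 cases (1.75%, 1.16 to 2.53) and of a 3' end in 26 (1.68%, 1.10 to 2.46). In regions that also had a somatic summit the values were 18.0% (16.7 to 19.5) and 1.98% (1.51 to 2.56), and in regions of all 12 libraries 27.5% (24.8 to 30.3) and 2.19% (1.39 to 3.26). The 5' shares of these classes have separate intervals, and the 3' intervals overlap. Outside genes, 357 members lay upstream of their nearest gene and 277 downstream (56.3% and 43.7%). Inside genes, the 612 members with a known strand were spread along the gene body, with 141, 116, 132, 127 and 96 in 5 equal segments from start to end.

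The 77 protein-coding genes with a member within 1 kb of an end (0.373% of 20665) had varied functions, which were not counted. A few were regulators of the germ line or early embryo. Sox2, the pluripotency factor, had a member across its start site. Mei1, which acts in meiotic recombination, had a member at its 3' end, with the middle 44.3 kb from the nearest annotated start, which lies inside the gene, and the nearest somatic summit lay 0.841 kb away. Snurf, part of the imprinted Snrpn transcript, had summits from 114 to 209 bp after a start (median 156), and no somatic summit was within 580 kb. Others of the 77 were Psrc1, a spindle protein, with a member 0.174 kb beyond its end, Slit3, an axon guidance ligand, with one 0.139 kb beyond its end, and Nnmt, a nicotinamide methyltransferase, with 2 members within 5 kb. Cdx1, a caudal-type homeobox factor, had a member 0.997 kb inside its higher-coordinate end, and the nearest somatic summit lay 57.0 kb away.

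Somatic summits lay in the wider neighbourhood of most members. The nearest summit of any somatic library was within 1 kb for 6.02% of members, within 10 kb for 37.6% and within 50 kb for 78.0%, with a median distance of 16.0 kb. For the 57357 regions with 1 germ-lineage library and no somatic one, the same shares were 20.3%, 56.0% and 84.7%, with a median of 7.07 kb. The rule itself sets the lower bound: the closest member was 201 bp from a somatic summit and 41 members lay within 400 bp of one, while the most isolated, near Zfp42, was 952 kb from any. Hoxa2, an anterior Hox gene, is an example just inside the rule, since its member lies 400 bp from a somatic summit.

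Germ-lineage-restricted regions lay near a larger share of pluripotency and epiblast genes than of genes at large, as counts with no test. Of all protein-coding genes on chromosomes 1 to 19, 10.5% had a member in the gene or within 50 kb of it. Among naive and core pluripotency genes the share was 13 of 23 (56.5%), with 15 distinct members, and among primed epiblast genes it was 8 of 19 (42.1%), with 8 distinct members. For regions with all 6 germ-lineage libraries and a somatic summit, the same lists gave 8 of 23 (34.8%) and 2 of 19 (10.5%), against 26.1% of all genes. For regions of all 12 libraries they gave 3 of 23 (13.0%) and 0 of 19, against 11.8% of genes. Within 10 kb, 6 pluripotency genes (26.1%) and 1 epiblast gene (5.26%) had a member, against 4.92% of all genes, and within 100 kb the shares were 60.9% and 47.4%, against 16.8%.

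Signalling, migration and DNA methylation genes followed. The list of KIT, chemokine and migration genes gave 8 of 22 (36.4%), DNA methylation genes 6 of 20 (30.0%, with 5 distinct members), germ cell specification genes 6 of 21 (28.6%, with 7 distinct members) and Notch pathway genes 4 of 17 (23.5%). Ribosomal protein genes, a housekeeping list, gave 10 of 50 (20.0%) within 50 kb but 2.00% within 10 kb, so a share of this order at 50 kb is also reached by a list without a germ-line role. Hox genes gave 7 of 39 (17.9%) from 2 distinct members, because neighbouring Hoxa genes share one, and 15 of 39 when emIE replicate 2 was left out. Posterior mesoderm and WNT genes gave 5 of 28 (17.9%), neural fate genes 4 of 24 (16.7%), H3K9 methylation genes 3 of 19 (15.8%), B cell and plasma cell genes 3 of 22 (13.6%) and BMP and SMAD genes 3 of 26 (11.5%). Below the background of 10.5% were Polycomb genes with 2 of 22 (9.09%), intestinal epithelium genes with 2 of 23 (8.70%), gonadal germ cell and meiosis genes with 2 of 30 (6.67%), endoderm fate genes with 1 of 17 (5.88%) and retinal genes with 1 of 20 (5.00%). Several of these counts rested on male E12.5 PGC. Without that library, when 15.9% of all genes had a member within 50 kb, Polycomb genes gave 4 of 22 and gonadal germ cell and meiosis genes 5 of 30. Both were only slightly above that background. Endoderm genes then gave 2 of 17, retinal genes 2 of 20, posterior mesoderm and WNT genes 8 of 28, BMP and SMAD genes 6 of 26, H3K9 methylation genes 5 of 19 and B cell and plasma cell genes 5 of 22. Retinal genes also gave 2 of 20 without d2 PGCLC replicate 2, d6 PGCLC replicate 2 or female E12.5 PGC. Within 100 kb, Polycomb genes gave 18.2%, against 16.8% of all genes. The median length of a listed gene was 9.24 kb for pluripotency, 6.55 kb for primed epiblast and 52.4 kb for KIT and migration genes, compared with 17.5 kb for all genes, and longer genes offer a wider window.

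Lists of the somatic cell types were set beside the regions restricted to those types. Regions restricted to PRP were within 50 kb of 17 of 20 retinal genes (85.0%, against 18.6% of all genes), regions restricted to emIE near 6 of 23 intestinal genes (26.1%, against 8.06%), and regions restricted to PB near 22 of 22 B cell and plasma cell genes (100%, against 54.8%). Other lists reached as high a share for PB and emIE. PB-restricted regions were near 20 of 20 DNA methylation genes (100%), and emIE-restricted regions near 13 of 39 Hox genes (33.3%). For PRP-restricted regions the next highest list was neural fate, with 13 of 24 genes (54.2%). Primed epiblast genes near PB-restricted regions numbered 3 of 19 (15.8%), and pluripotency genes 11 of 23 (47.8%). Hox genes were near regions shared between the germ lineage and somatic cells in 24 of 39 cases (61.5%, against 26.1%).

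**Figure D4:**
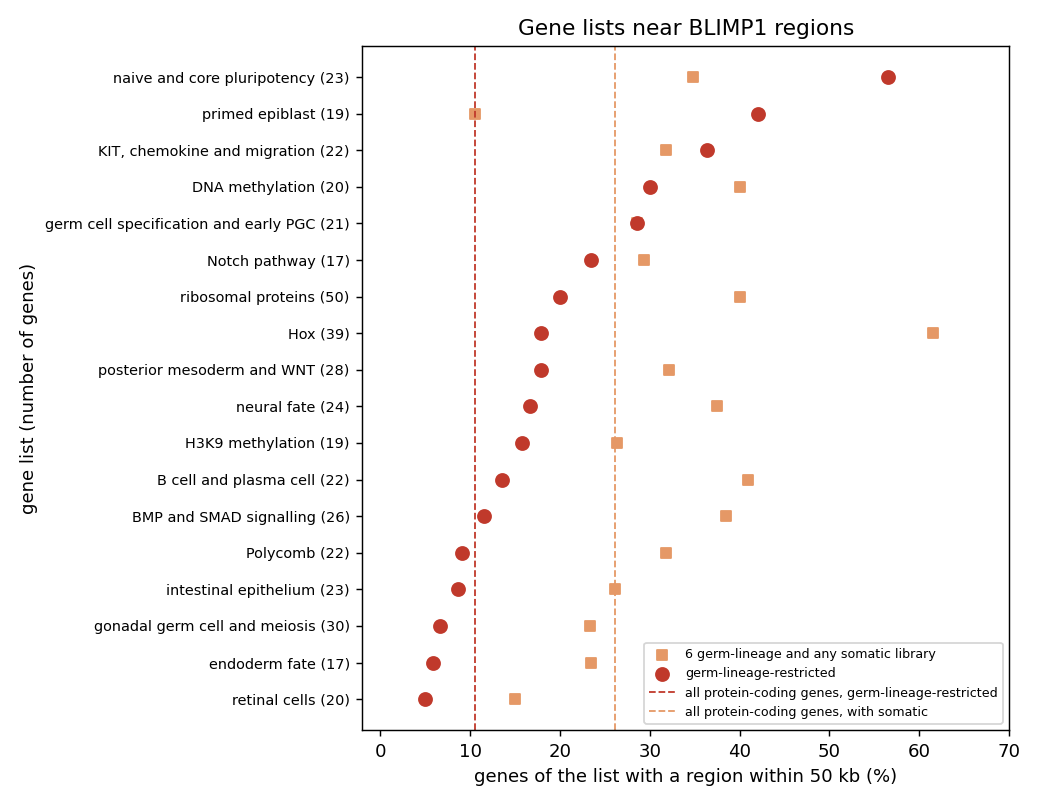
Share of the genes of each list (%) with a germ-lineage-restricted region within 50 kb (circles) or with a region of all 6 germ-lineage libraries and any somatic one (squares); dashed lines are the shares over all protein-coding genes, 10.5% and 26.1%. Naive and core pluripotency (56.5%) and primed epiblast (42.1%) have the highest circles.

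Among the pluripotency factors, Sox2 carried the member closest to a start site. Relative to the Sox2 start (chr3:34649995-34652461, plus strand) the summits of d2 PGCLC replicates 1 and 2 lay at 119 and 17 bp, those of d6 PGCLC replicates 1 and 2 at 81 and 164 bp, that of male E12.5 PGC at -83 bp and that of female E12.5 PGC at 189 bp. Male E12.5 PGC was thus the only library with its summit before the start. A second member lay 18.5 kb downstream, with summits between 18362 and 18628 bp, and the nearest somatic summits were 9.07 and 3.85 kb from these members. In the 60 kb on either side of the start, the 6 germ-lineage libraries had 7, 10, 25, 6, 7 and 10 summits in the same order, PRP had 4 and 7, emIE had 1 and 0 and PB had 0 and 0.

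Zfp42, also known as Rex1 and a classical marker of naive pluripotency, had the member farthest from any somatic summit. Its summits lay upstream, from -23544 to -23440 bp relative to the start (median -23480), so the 6 libraries fell within 104 bp. Within 60 kb of the start the germ-lineage libraries had 1, 2, 5, 1, 1 and 2 summits, and all 6 somatic libraries had 0. Dppa4, a chromatin-associated pluripotency gene, and Tcl1, an AKT co-activator, had the same pattern over 50 kb, with members 29.9 kb and 16.6 kb from the gene, at least 1 summit in each germ-lineage library and 0 in each somatic library. A list with few summits can show 0 at any one locus, so these zeros describe the lists.

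Klf4, a reprogramming factor, was the nearest gene of 3 members, of which 1 lay within 50 kb. That member was 12.8 kb downstream of the Klf4 start, beyond the gene's 3' end, with summits between 12710 and 12815 bp and the nearest somatic summit 8.14 kb away. Within 60 kb of the start, PB replicates 1 and 2 had 7 and 6 summits, about as many as the d2 PGCLC libraries with 6 and 6, so the locus as a whole was not free of somatic summits. Esrrb, an orphan nuclear receptor, had a member 10.9 kb upstream whose 6 summits spanned 54 bp. Tfcp2l1, which sustains naive pluripotency downstream of LIF, had one 2.21 kb upstream (summits from -2244 to -2174 bp). Receptors of the LIF signal itself were represented by Il6st, with a member 22.7 kb into the gene, and by Lifr. The Lifr member lay 8.54 kb upstream of the annotated gene, and 47.5 kb from the nearest start in the promoter table. Further members lay 9.71 kb upstream of Fgf4, a growth factor that drives cells out of the naive state, 25.3 kb from the T-box gene Tbx3, and 37.8 kb upstream of Prdm15, a relative of Prdm1. The Fgf4 member is closer to Fgf3, the Prdm15 member to C2cd2 and the Tcl1 member to Tcl1b4.

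Genes of the Nodal pathway made up 4 of the 8 epiblast genes with a member. Nodal, the ligand, had members 42.6 and 23.2 kb upstream of its start, with summits from -42699 to -42486 bp and from -23281 to -23168 bp, but both are closer to Pald1. Tdgf1, its co-receptor, had a member 1.05 kb upstream (summits from -1089 to -1008 bp, nearest somatic summit 43.9 kb away). Lefty1 and Lefty2, the secreted inhibitors, shared 1 member, 10.1 kb and 25.8 kb from the respective gene (nearest somatic summit 2.33 kb away). The Nodal neighbourhood also held somatic summits, 3 and 10 in PB and 1 and 2 in emIE within 60 kb of the start. Otx2, a homeobox factor of the epiblast that is also used in the retina, had a member 33.5 kb upstream (summits within 57 bp, nearest somatic summit 21.4 kb away). Members also lay 43.3 kb from Pou3f1, 42.8 kb from Zic5 and 38.2 kb from Grhl2, all transcription factor genes, although the Zic5 member is closer to Clybl and the Grhl2 member to Ncald.

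**Figure D5:**
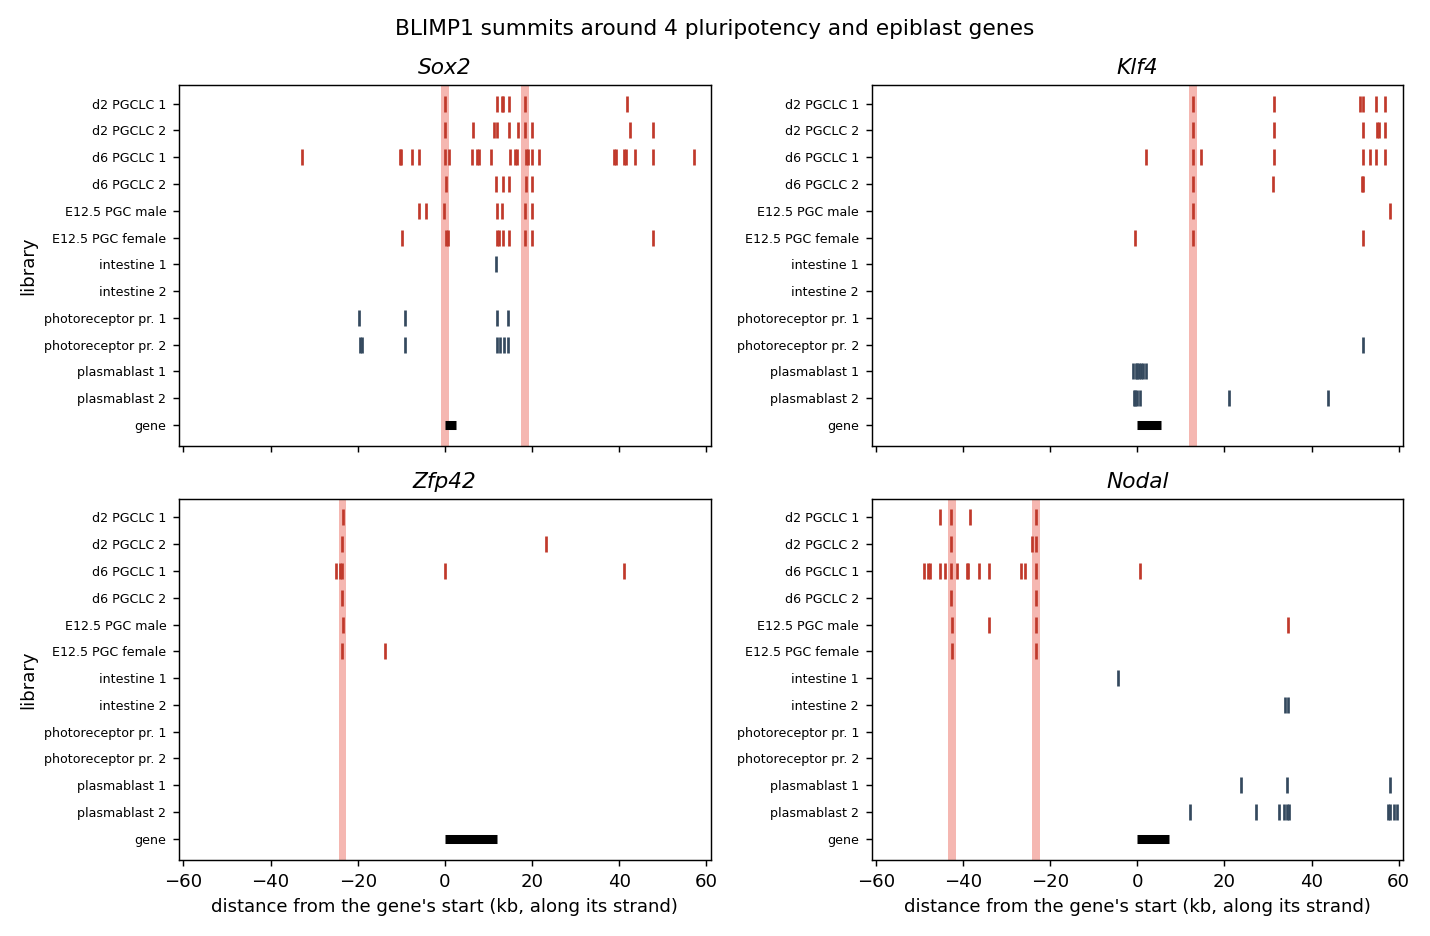
Summits of each library (rows) within 60 kb of the start of Sox2, Klf4, Zfp42 and Nodal, by distance along the gene's strand (kb), with the germ-lineage-restricted regions as pale bands drawn wider than to scale so that they can be seen. Zfp42 has no somatic summit in the window, while PB replicates 1 and 2 have 7 and 6 around Klf4 and 3 and 10 around Nodal.

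Germ cell specification genes included Prdm1 itself. Prdm1 held 2 members inside the annotated gene, 30.4 and 61.6 kb upstream of the nearest start in the promoter table, with summits from -30427 to -30367 bp and from -61719 to -61485 bp. Somatic summits were dense there, 1.93 and 2.77 kb from these members, with 27 and 24 in PB within 50 kb of the gene. Alpl, the alkaline phosphatase long used to stain PGC, had a member 5.06 kb upstream, and Ifitm3, an interferon-induced membrane protein marking PGC precursors, had one 14.2 kb upstream. Nanos3, an RNA-binding survival factor of PGC, had one 24.2 kb from the gene, and Elavl2, another RNA-binding protein, had one inside. The Ifitm3 member is closer to Ifitm6 and the Nanos3 member to 4930432K21Rik. Dppa3, also called Stella, shared a member with Apobec1, 35.1 kb from Dppa3 and inside Apobec1. The nearest somatic summits were 4.64, 7.55, 1.18 and 80.4 kb from the members of Alpl, Ifitm3, Nanos3 and Elavl2. For the member shared by Dppa3 and Apobec1 the distance was 7.32 kb. Central regulators without a member within 50 kb were Tfap2c (nearest 1742 kb), Prdm14 (227 kb), Nanog (116 kb), Pou5f1 (233 kb), Kit (215 kb), Ddx4 (112 kb) and Dazl (134 kb). Missing members did not always mean missing summits. Within 50 kb, the germ-lineage libraries had 2 to 13 summits at Nanog, 2 to 16 at Prdm14 and 1 to 22 at Pou5f1. Tfap2c and Ddx4 had 0 in d2 PGCLC replicate 1, and Kit had 0 in d6 PGCLC replicate 2. Dazl had 1 in female E12.5 PGC and 0 in every other germ-lineage library.

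Genes of DNA demethylation and methylation were touched at single sites. Tet2 and Tet3, which oxidise 5-methylcytosine, each had a member inside the gene, 10.7 and 19.8 kb from a start. Dnmt3b, a de novo methyltransferase, had one 26.7 kb upstream that is closer to Commd7, and Gadd45a, linked to DNA repair and demethylation, had one 3.88 kb from the gene. The nearest somatic summits were 8.36, 13.4, 9.97 and 2.96 kb from the members of Tet2, Tet3, Dnmt3b and Gadd45a. Tet1, Dnmt3a and Uhrf1 had none within 50 kb (nearest 74.1, 299 and 539 kb). The H3K9 methyltransferase gene Ehmt1 had a member 7.32 kb into the gene, and Jarid2, a Polycomb cofactor, had 2 members 25.1 and 22.1 kb upstream.

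Ligands and receptors that steer migrating PGC had members as well. Kitl, the KIT ligand, had one inside the gene, while Kit had none within 50 kb. Cxcr4, the chemokine receptor, had a member 6.07 kb upstream (summits from -6118 to -6027 bp), and Cxcl12, its ligand, had one with summits from -16613 to -16355 bp. PB replicates had 18 and 23 summits within 50 kb of Cxcr4, emIE and PRP 0. Fgfr1 and Fgfr2, FGF receptors, each had a member inside the gene, and the FGF feedback inhibitors Spry2 and Spry4 had 2 and 1 members. Gja1, a gap junction protein, had one 2.95 kb upstream. In the Notch pathway, Jag1, a ligand, had a member inside the gene with 0 somatic summits within 50 kb, while Hes1, Dll1 and Notch1 had members 14.3, 35.6 and 36.1 kb from the gene, with somatic summits within 50 kb as well.

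Across the genome, the 1596 members were nearest to 1356 protein-coding genes (6.56% of all). Most of these, 1153, were nearest to 1 member, 168 to 2, 33 to 3 and 2 to 4. The 2 genes with 4 members were Immp2l, a mitochondrial peptidase subunit, with 3 members inside its 932 kb, and Spock1, a proteoglycan of 487 kb whose members lay 58.4 to 136 kb from the gene. Long genes prevailed among those with several members: 26 of the 35 genes with 3 or more were over 100 kb long, and the median length was 64.2 kb for nearest genes against 17.5 kb for all genes. The other end of that set was made of short genes. The 7 under 20 kb were Sox2, Klf4, Zfp281, Sox9, Sall1, Irx3 and Spry2, of which 6 encode transcription factors and Spry2 a signalling inhibitor.

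Members seldom lay close together. Chained at distances of at most 20 kb, 1502 members stood alone, 44 pairs formed, and 2 groups held 3 members each. One of these groups, spanning chr1:136674739-136695212 (20.5 kb), lay 44.5 to 64.8 kb beyond the 3' end of Zfp281, a zinc-finger regulator of pluripotency. The other, spanning chr10:126971117-126998043 (26.9 kb), lay at Ctdsp2, the phosphatase gene that hosts Mir26a-2, with 1 member before the gene and 2 inside it. The tightest pairs were near Pdgfrl (1.55 kb), St14 (2.21 kb) and Arhgap28 (2.80 kb). By chromosome, members numbered 48 on chromosome 19 to 126 on chromosome 2, and their share of the regions with all 6 germ-lineage libraries ran from 30.8% on chromosome 4 to 43.7% on chromosome 14 (83 of 190).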

How the data were processed

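EGFP-BLIMP1 ChIP-seq summits of 12 libraries were used; the input was not used here. Build mm10, MACS2 2.1, Bowtie 1.1.2, cutadapt 1.7.1 and Trim Galore 0.3.7 are named in the submitters' processing notes. The deposited lists give summit positions for each library separately, as the authors called them. The threshold, control, depth and counting base (0 or 1) are not given in the sources used here. Printed positions may therefore be off by 1 bp. Regions were built and counted in Python 3.11.15 with pandas 2.3.3 and numpy 2.4.6, intervals with scipy 1.17.1. The code was checked on simulated lists with 200 planted regions, of which 200 were recovered with no other called. Planted summits always lay within merging distance and away from the scattered summits, so this check does not cover chance overlap in real lists. Genes came from RefSeq's table of GRCm38.p6 (20665 protein-coding genes on chromosomes 1 to 19), strand and sequence from RefSeq promoter windows (79.6% of these genes). Exon and intron positions and motifs outside those windows were not analysed here. Of 455 entries in 18 lists, 442 matched genes on these chromosomes. Named genes are the 12 nearest to most members, up to 20 with a member within 1 kb of an end, up to 4 per list by number of members within 50 kb and then distance, the largest clusters and a fixed set. Other genes of the lists, the genes under 20 kb with 3 or more members and the microRNAs were added after their values were seen. Not all were printed. The members and lists were chosen with earlier results of these data known. No test was run, since the rule used the contrast itself.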

Additional observations from a re-analysis of the deposited data

How the results depend on the processing

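The number of members was 1348 when summits were merged at 100 bp, 1643 at 500 bp, 1500 when no somatic summit was allowed within 1 kb, and 1624 with chromosome X. Leaving out 1 library at a time gave 1617 to 2436, the highest without male E12.5 PGC, where 15.9% of genes had a member within 50 kb. The share of members within 1 kb of a gene end was 3.27% without members that had a somatic summit within 1 kb, 2.07% with a window of 500 bp, 15.7% with one of 5 kb, and 8.65% with genes of all kinds. Within 10 kb instead of 50 kb the counts were 6 naive and core pluripotency, 1 primed epiblast and 3 germ cell specification genes. Leaving out single libraries gave 12 to 14, 8 to 11 and 6 to 7 genes for these lists. Merging at 100 bp gave 11, 8 and 5 genes, when 9.16% of all genes had a member within 50 kb. These counts at 100 bp are not part of the alternatives counted next. Of 91 alternatives for these results, the share inside genes included, 83 stayed within the limits set for a change. The limit was a fixed ratio to the main value for counts and the main share's own 95% interval for shares. For the other 15 lists, 179 of 210 stayed within these limits, 19 were higher and 12 lower, the lower ones all within 10 kb. Many alternatives share most of their members, and another distance window changes the measure itself, so these numbers do not measure robustness. Other widths of motif window were not run, because only promoter windows had sequence. No paired analysis was possible because every value is a count over merged lists with no test, and replicate numbers only name libraries. Without read depth, a missing summit may reflect a short list.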

Other observations

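Some short developmental regulators were nearest to several members at a distance. Sall1, a zinc-finger factor, was nearest to 3 members, 32.0 to 137 kb from the gene, and the somatic summits closest to them were 109 to 214 kb away. Irx3, a homeobox gene, was nearest to 3 members, the closest with summits from -11148 to -10790 bp and the farthest 266 kb away, and the 6 somatic libraries each had 0 summits within 50 kb of the gene. The somatic summits closest to its members were 3.79 to 190 kb away. Sox9, which directs Sertoli cell and cartilage fate, was nearest to 3 members from 23.5 to 465 kb away, with somatic summits 5.92 to 33.7 kb from them. En1, a homeobox gene of the midbrain, differed in having a single member, 36.0 kb away, and no somatic summit within 50 kb. These genes were singled out after their values were seen.

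Of 919 microRNA hairpins on chromosomes 1 to 19, 14 (1.52%) had a member within 10 kb, against 4.92% of protein-coding genes. Those genes had a median length of 17.5 kb, which gives them a wider window than a hairpin. The microRNAs are thus named as positions, with no excess near members shown. They included Mir26a-2 (2.43 kb) and Mir546 (0.496 kb), which are near the same member at Ctdsp2, the pair Mir181a-2 and Mir181b-2 (2.52 and 1.41 kb from 1 member), and Mir205 (2.65 kb).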
